A study of Mus musculus with 12 samples.

Results

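The data compare mouse oligodendrocyte progenitor cells (OPCs) exposed to C12-C14-Alkyl(ethylbenzyl)dimethylammonium chloride (AEBDAC) with the same kind of cells given only the vehicle, dimethyl sulfoxide (DMSO). The comparison was chosen by treatment label and uses 6 of the 12 libraries of the series, 3 AEBDAC and 3 vehicle; the other 6 libraries came from cells exposed to cetylpyridinium chloride (CPC) or methyltrioctylammonium chloride (MTOAC). All groups shared the cell source, labelled as mPSC-derived OPCs, and the medium, DMEM F12 to which rhIGF-1, cAMP, rhNT3, rhNoggin, B27 and N2max had been added. Cells had attached for 1 h in a medium that permits differentiation before an exposure of 4 h. AEBDAC was given at its IC75, a concentration that inhibits by 75%, which the labels do not state as an amount. No genetic change is named for any group. Whether the 3 libraries of a group were separate cultures is not said in the labels, and the p-values rest on a spread between libraries that may be technical.

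Quaternary ammonium compounds are positively charged, surface-active chemicals used as disinfectants and detergents, and in AEBDAC the nitrogen bears an alkyl chain and an aromatic ethylbenzyl group. OPCs are the dividing precursors of oligodendrocytes, the cells that wrap axons in myelin in the brain and spinal cord. Cells under several kinds of stress phosphorylate the initiation factor eIF2, which slows most translation while favouring translation of the transcription factor ATF4. ATF4 in turn switches on genes for amino acid supply and for its own feedback control, a program called the integrated stress response (ISR). Immediate early genes, such as Fos and Nr4a1, are transcribed within minutes of many stimuli without new protein synthesis.

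Poly(A) RNA was sequenced, and expression is given as TPM, the share of a transcript in its library after scaling for transcript length. A gene was tested when it reached 1 TPM in at least 3 of the 12 libraries, which left 12009 of 35385 symbols. Fold changes are on the scale log2(TPM + 1) with ± the standard error (SE) of the fit; rise and fall are used only of genes that passed limma at a Benjamini-Hochberg adjusted p under 0.05 over all 12009 genes, and ± beside TPM means is the SD over 3 libraries. Totals lay between 772637 and 797758 TPM, and 15431 to 16210 symbols were above 0 in a library. Read depth is not known beyond the stated minimum of 20 M reads per library. Vehicle library 1 stood apart: the 13 genes of the mitochondrial genome made up 86422 TPM there, and 147539 to 183001 TPM in the other 11 libraries, its mt-Nd3 was listed at 0, and its mean correlation with the others was 0.917 against 0.935 to 0.957. Where the calls of a list or gene changed without it, this or the number of left-out fits that kept the call is given. The housekeeping genes Actb and Eef1a1 were low in these 6 libraries, at 31.6 to 69.7 TPM and at 36.7 to 63.2 TPM.

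The cells carried OPC genes in both groups. Olig2, a transcription factor that defines the lineage, was at 351, 537 and 488 TPM in vehicle and 431, 423 and 349.8 TPM after AEBDAC. Cspg4, the NG2 proteoglycan of the OPC surface, was at 23.7, 27.2 and 44.1 TPM against 36.9, 30.2 and 44.5 TPM. Pdgfra, the receptor for the OPC mitogen PDGF, was at 29.3, 35.6 and 29.3 TPM against 19.7, 24.4 and 17.9 TPM, and its difference did not pass the test (limma adjusted p = 0.28). All 3 OPC-defining genes were thus present in all 6 libraries, at levels of the same order. Among markers of other cell types, the microglial genes C1qa, C1qb, C1qc, Cx3cr1 and Trem2 were at 0 in all 6 libraries and none of the 12 microglia and myeloid markers passed the filter. Neuron markers, by contrast, summed to 659 to 912 TPM in vehicle and 525 to 778 TPM after AEBDAC. Map2, at 272 to 431 TPM, and Gap43, at 185 to 410 TPM, made up most of that sum. Tubb3 was at 21.1 to 32.6 TPM, and every other neuron marker was at most at 12.9 TPM. Astrocyte markers summed to 395 to 423 TPM and 352 to 396 TPM, with Aldoc the largest member at 162 to 224 TPM. Gfap, Aqp4 and Aldh1l1 were at most at 1.70 TPM. Cells of other types may be present, but sums led by so few genes do not show it.

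AEBDAC changed 153 genes, 1.27% of those tested: 47 rose (0.391%) and 106 fell (0.883%), so that 69.3% of the changed genes were lower. The rises were the larger changes, from 0.53 to 3.45 log2, with 27 genes over 1 and 5 over 2; the falls ran from -0.47 to -2.28 log2, with 38 genes under -1 and 3 under -2. Genes for amino acid supply and the ISR led the rises, and genes for RNA-binding proteins and mitosis were among the falls, as were Olig1, Omg and Dll1. The median gene differed by -0.16 log2, and 8043 of the 12009 differences (67.0%) were negative; when quantile normalization removed that shift, 96 genes rose (0.799%) and 86 fell (0.716%), 1.52% in all. At an unadjusted p under 0.05, 2301 genes differed, and the 6 libraries did not overlap in 678 genes that were higher (5.65%) and 2311 that were lower (19.2%), 24.9% in all.

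The number of calls depended on single libraries. It was 36 without vehicle library 1 (0.3%), of which 16 were higher (0.133%) and 20 lower (0.167%), 12 without vehicle library 2, 38 without vehicle library 3, 9 without AEBDAC library 2 and 10 without AEBDAC library 3. Without AEBDAC library 1 it was 104. All 153 genes kept their direction in each of these 6 fits. Omg, Dll1, Sfpq, Mthfd2, Nr4a1, Npas4, Trib3, Chac1 and Asns were called in all 6, and 65 genes were called in none of them. With only the 6 libraries in the fit, 3 genes were called, Chac1, Mthfd2 and Nr4a1.

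**Figure D1:**
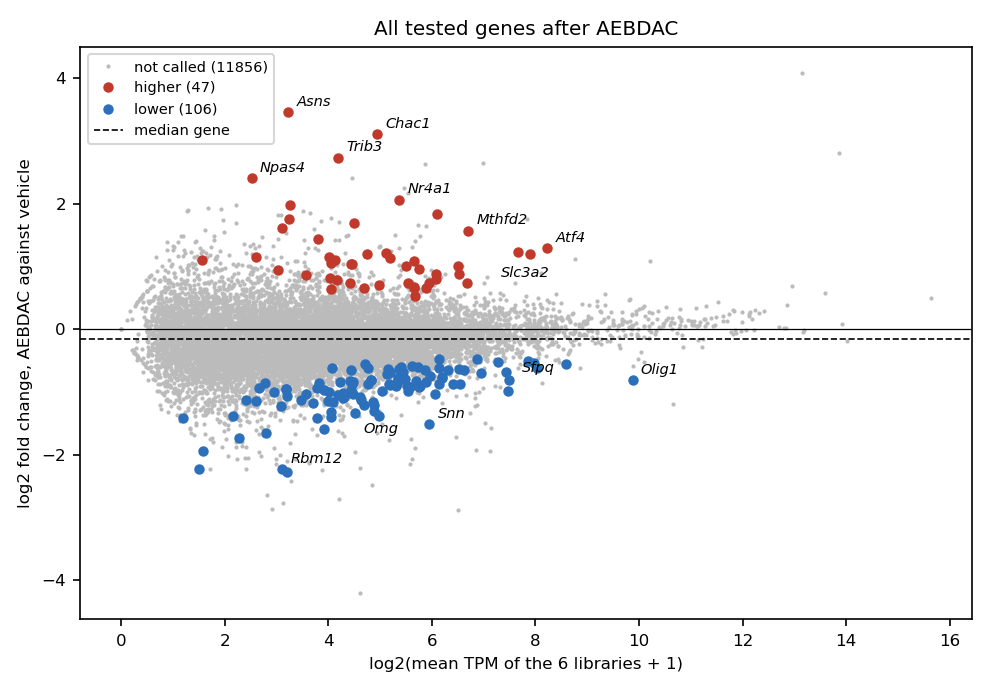
Each point is 1 of the 12009 tested genes, with the log2 of its mean TPM + 1 over the 6 libraries on the x axis and its log2 fold change, AEBDAC against vehicle, on the y axis; red and blue points are the 47 genes that rose and the 106 that fell, and the dashed line is the median gene at -0.16. The largest rises (Asns, Chac1, Trib3) lie above the largest falls in size, and changed genes reach up to abundant ones such as Atf4 and Olig1.

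Among the effectors of the ISR, 5 of 22 tested genes rose and none fell. The median of the list stood 0.93 log2 above that of all tested genes, 19 of 22 differences were positive, and in 12 genes the AEBDAC libraries were all above the vehicle libraries, against 5.65% of all genes. Atf4, which encodes the central transcription factor of the response, was at 132, 176 and 219.8 TPM in the vehicle libraries and at 381, 444 and 445 TPM after AEBDAC. Each AEBDAC library was well above each vehicle library, a rise of 1.29 ± 0.20 log2 (limma adjusted p = 0.0207).

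Chac1, a glutathione-degrading enzyme and ATF4 target, was at 3.05, 6.50 and 7.42 TPM in vehicle and 47.1, 60.7 and 54.9 TPM after AEBDAC. The groups lay far apart, and the mean was 9.58 times as high (3.11 ± 0.25 log2, limma adjusted p = 0.000531). Trib3, a pseudokinase that restrains ATF4, was at 2.45, 3.67 and 5.08 TPM against 21.001, 30.6 and 40.4 TPM. Again no library overlapped, and the mean was 8.22 times as high (2.73 ± 0.28 log2, limma adjusted p = 0.00279). Herpud1, which serves the degradation of misfolded endoplasmic reticulum (ER) proteins, was at 23.9, 16.8 and 18.6 TPM against 38.6, 49.4 and 53.9 TPM, all AEBDAC libraries above all vehicle ones (1.22 ± 0.17 log2, limma adjusted p = 0.0151). Eif4ebp1, a repressor of cap-dependent translation, was at 69.9, 50.5 and 58.9 TPM against 116, 101 and 147 TPM and also did not overlap (mean 2.02 times as high, limma adjusted p = 0.0404). Without vehicle library 1, 3 of the 22 genes were called. Calls of Atf4 were lost without vehicle library 1 or 2 or AEBDAC library 2 or 3, and Eif4ebp1 was called in none of the 6 fits that left out a library.

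Other ISR genes did not pass the test. Ddit3, which encodes the pro-apoptotic factor CHOP, was at 12.7, 8.25 and 4.49 TPM in vehicle and 10.8, 10.5 and 10.9 TPM after AEBDAC, with overlapping groups (0.41 log2, limma adjusted p = 0.515). Sesn2, a stress-induced inhibitor of mTORC1 signalling, was at 70.3, 73.4 and 46.1 TPM against 107, 156 and 119 TPM, without overlap but short of the threshold (1.01 log2, limma adjusted p = 0.0525). Ddit4, another mTORC1 inhibitor, was at 116, 150.3 and 161 TPM against 153, 153 and 118 TPM, with overlapping groups. Atf3, a stress-induced factor of the same family as ATF4, was at 0 in 5 of the 6 libraries and 1.81 TPM in AEBDAC library 2, below the filter.

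Genes of amino acid supply held the largest rise of the data set. Among 18 tested enzymes of amino acid and one-carbon synthesis, Asns and Mthfd2 rose and none fell; among 16 tested amino acid transporters, Slc7a5, Slc3a2 and Slc1a4 rose and none fell. Asns, which makes asparagine, was at 0.142, 1.88 and 0 TPM in vehicle and 10.1, 15.4 and 22.8 TPM after AEBDAC. It was near or at 0 in vehicle and clearly present in every AEBDAC library (3.45 ± 0.41 log2, limma adjusted p = 0.00546). Mthfd2, a mitochondrial enzyme of folate metabolism, was at 54.1, 46.5 and 53.2 TPM against 132, 156 and 177 TPM, groups that were narrow and apart (1.57 ± 0.17 log2, limma adjusted p = 0.00337).

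Slc7a5 and Slc3a2 encode the light and heavy chains of a carrier for large neutral amino acids. Slc7a5 was at 117, 109 and 132 TPM in vehicle and 234, 279 and 339 TPM after AEBDAC (1.23 ± 0.19 log2, limma adjusted p = 0.019), and Slc3a2 at 139.6, 140.5 and 147 TPM against 264, 343 and 386 TPM (1.19 ± 0.19 log2, limma adjusted p = 0.0225). In both chains every AEBDAC library exceeded every vehicle library, and AEBDAC library 1 was the lowest of its group. Slc1a4, a carrier of small neutral amino acids, was at 36.6, 31.8 and 32.7 TPM against 50.1, 59.3 and 61.1 TPM (0.73 ± 0.13 log2, limma adjusted p = 0.032). Without vehicle library 1, 1 of the 3 transporters was called, whereas both enzymes were.

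Enzymes that load amino acids onto tRNA did not pass: none of 20 tested cytosolic aminoacyl-tRNA synthetases was called. Their median still stood 0.41 log2 above that of all genes, and 5 had non-overlapping, higher libraries, against 5.65% of all genes. Sars, the seryl-tRNA synthetase, was at 3.15, 5.05 and 9.81 TPM against 14.1, 27.4 and 21.96 TPM (1.73 log2, limma adjusted p = 0.0709), and Yars, the tyrosyl one, at 80.6, 70.4 and 83.4 TPM against 106, 113 and 128 TPM (0.56 log2, limma adjusted p = 0.0687). After quantile normalization 3 of the 20 were called higher. None of the 17 mitochondrial synthetases was called, and their median was 0.03 log2 from that of all genes.

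**Figure D2:**
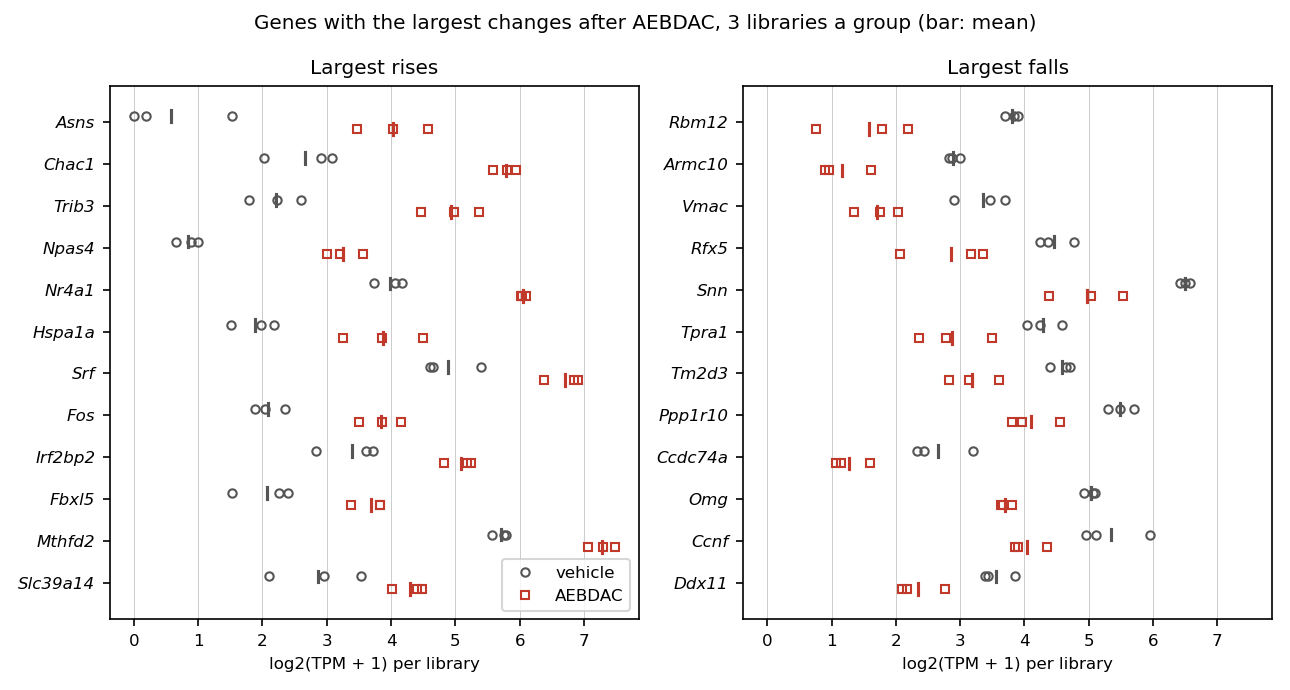
Values per library, as log2(TPM + 1) on the x axis, of the 12 genes with the largest rises (left) and the 12 with the largest falls (right) among genes with at least 5 TPM in the higher group; grey circles are the 3 vehicle libraries, red squares the 3 AEBDAC libraries, and bars group means. No gene has overlapping groups, which the choice of genes required; Mthfd2 has the highest values on the left after AEBDAC and Snn the highest on the right in vehicle.

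Sequences upstream of the start are shown for ISR genes that rose because ATF4 acts through a C/EBP-ATF response element (CARE), and for Nr4a1 and Srf below because cyclic AMP response elements (CRE) and CArG boxes, the sites of serum response factor, are the best known elements of immediate early genes. The windows hold the 250 bases before the start of a gene in RefSeq on GRCm38.p6, and the letters TGATGNAA of the CARE core, TGACGCA of a CRE-like site, and the CArG box were searched on both strands. TGATGNAA and TGACGCA cannot match at the same first base. The CARE core was found in 3.45% of all 32851 windows of the table, the CRE-like letters in 1.75% and a CArG box in 1.47%; in the 11698 windows of tested genes the shares were 1.85%, 2.97% and 1.08%. The genes shown were picked after their values were seen, and a match is a description of letters, not evidence of binding. A comparison of match shares between changed and other genes is not given, because only 36 of the 47 genes that rose and 81 of the 106 that fell have a window, under the 80% set for such a check. Capitals mark the CARE core in the first 3 sequences; distances count from the RefSeq start, and bases that GENCODE M21 places in an exon are left out. Chac1 has 1 CARE core 193 bases upstream, on the reverse strand, and CRE-like letters, left in lower case, at the far end of the window, 250 bases upstream (chr2:119350992-119351228, plus strand). Herpud1 has 1 CARE core 112 bases upstream, on the reverse strand, and CRE-like letters, left in lower case, 130 bases upstream (chr8:94386179-94386428, plus strand). Asns has 1 CARE core 23 bases upstream and no CRE-like letters (chr6:7693214-7693243, minus strand), which lies in an exon of a longer transcript in GENCODE, so only the bases around it are shown. The windows of Trib3 and of the transporter gene Slc1a4, which also rose, hold neither.
Chac1: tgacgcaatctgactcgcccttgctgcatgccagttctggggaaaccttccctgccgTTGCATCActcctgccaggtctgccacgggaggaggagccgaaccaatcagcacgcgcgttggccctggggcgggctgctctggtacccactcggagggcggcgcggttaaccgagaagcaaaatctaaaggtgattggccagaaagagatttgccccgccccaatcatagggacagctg
Herpud1: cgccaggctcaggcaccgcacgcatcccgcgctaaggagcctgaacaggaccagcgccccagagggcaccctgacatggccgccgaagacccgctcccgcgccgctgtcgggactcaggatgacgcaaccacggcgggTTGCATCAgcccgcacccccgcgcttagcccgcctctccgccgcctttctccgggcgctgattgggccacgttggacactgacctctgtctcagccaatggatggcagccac
Asns: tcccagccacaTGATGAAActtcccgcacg

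Of 19 tested immediate early genes, 3 rose, none fell, and the list median stood 0.92 log2 above that of all genes. Nr4a1, an orphan nuclear receptor, was at 12.3, 17.1 and 15.6 TPM in vehicle and 64.9, 63.6 and 67.7 TPM after AEBDAC. The AEBDAC libraries lay close together and all far above vehicle, and the mean was 4.36 times as high (2.06 ± 0.17 log2, limma adjusted p = 0.000531). Npas4, a transcription factor best known for its induction by calcium in neurons, was at 0.581, 0.844 and 1.004 TPM against 6.996, 8.20 and 10.9 TPM, with every AEBDAC library several times higher than any vehicle library (2.41 ± 0.26 log2, limma adjusted p = 0.0036). Fos, a subunit of the factor AP-1, was at 3.09, 4.10 and 2.70 TPM against 10.4, 16.8 and 13.6 TPM without overlap (1.75 ± 0.30 log2, limma adjusted p = 0.032). Without vehicle library 1, 2 of the 19 genes were called. Srf, the serum response factor, was at 40.97, 23.3 and 24.1 TPM against 82.5, 114 and 119 TPM. Vehicle library 1 was the highest of its group, yet below every AEBDAC library (1.83 ± 0.28 log2, limma adjusted p = 0.0195).

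Other immediate early genes did not pass. Egr1, a zinc finger factor, was at 0.599, 1.67 and 5.78 TPM in vehicle and 3.21, 12.1 and 21.9 TPM after AEBDAC, with overlapping groups and a wide spread (1.81 log2, limma adjusted p = 0.274). Btg2, an antiproliferative gene, was lower in every AEBDAC library, 150.3, 115 and 132 TPM against 68.3, 27.7 and 32.03 TPM, and missed the threshold (-1.72 log2, limma adjusted p = 0.0539). Nr4a2, the close relative of Nr4a1, was at 4.83, 4.07 and 3.66 TPM against 2.81, 2.24 and 2.57 TPM, with all AEBDAC libraries lower, and did not pass (-0.55 log2, limma adjusted p = 0.23).

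The windows of Nr4a1 and of Srf, which is not a member of the immediate early list, are shown because they hold the letters searched. In that list, 15 of 19 genes have a window, of which 2 hold CRE-like letters and 0 a CArG box. The Nr4a1 window (chr15:101266596-101266845, plus strand, within the span of the longer Nr4a1 transcripts and in none of their exons) holds 4 CRE-like matches on the reverse strand, 235, 215, 71 and 42 bases upstream of the RefSeq start. The Srf window (chr17:46556176-46556412, minus strand) holds 2 CArG boxes, 82 and 62 bases upstream. Npas4 and Fos had no match to the palindromic CRE letters TGACGTCA in their windows, and those letters occur in 1.55% of all windows and in 2.58% of those of tested genes. Capitals mark the CRE-like letters in the first sequence and the CArG boxes in the second.
Nr4a1: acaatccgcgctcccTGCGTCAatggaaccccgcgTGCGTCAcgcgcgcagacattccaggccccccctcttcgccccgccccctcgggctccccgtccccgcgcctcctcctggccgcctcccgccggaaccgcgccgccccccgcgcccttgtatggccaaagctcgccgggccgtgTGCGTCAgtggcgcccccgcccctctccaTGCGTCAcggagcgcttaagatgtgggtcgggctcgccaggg
Srf: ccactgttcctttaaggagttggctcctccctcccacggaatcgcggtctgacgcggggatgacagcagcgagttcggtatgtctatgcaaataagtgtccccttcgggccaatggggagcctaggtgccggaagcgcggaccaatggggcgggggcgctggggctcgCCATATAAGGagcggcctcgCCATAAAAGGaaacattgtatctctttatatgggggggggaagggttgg

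Genes that feed back on ERK signalling, the kinase cascade downstream of growth factor receptors, had the highest list median, 1.13 log2 above that of all genes, but 0 of 13 tested genes passed the test. In 6 of the 13 the AEBDAC libraries were all above vehicle, against 5.65% of all genes, and 11 differences were positive. Spry2, a sprouty inhibitor of receptor signalling, was at 16.8, 38.2 and 19.2 TPM in vehicle and 44.5, 114 and 82.5 TPM after AEBDAC (1.65 log2, limma adjusted p = 0.101). Dusp6, a phosphatase of ERK, was at 7.01, 26.95 and 22.02 TPM against 18.7, 65.3 and 88.5 TPM (1.502 log2, limma adjusted p = 0.331). In both genes, and in Spry4 at 4.03, 13.8 and 9.62 TPM against 12.6, 31.6 and 33.8 TPM, library 1 was the lowest of either group. Without vehicle library 1 the list median was 0.74 log2 above that of all genes, with 0 calls.

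In other stress programs few genes were called. Of 23 tested cytosolic heat shock genes, Hspa1a, an inducible HSP70, rose and Dnaja1, an HSP40 co-chaperone, fell; without vehicle library 1 neither was called. Hspa1a was at 3.52, 1.86 and 2.92 TPM in vehicle and 8.55, 21.5 and 13.6 TPM after AEBDAC (1.98 ± 0.38 log2, limma adjusted p = 0.0396). Its reads are uncertain, because 63.8% of its 31-base words also occur in Hspa1b; the sum of both genes was 7.45, 6.42 and 9.70 TPM against 17.7, 43.4 and 30.4 TPM. The sums did not overlap either. Dnaja1 was at 290.1, 249.8 and 278 TPM against 183, 197 and 193 TPM (-0.51 ± 0.09 log2, limma adjusted p = 0.038). Hmox1, which degrades haem, was the only one of 19 tested NRF2 antioxidant genes to pass, at 38.5, 46.3 and 55.7 TPM against 71.6, 93.4 and 96.4 TPM (0.89 ± 0.18 log2, limma adjusted p = 0.0406), and it did not pass without vehicle library 1.

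Of 25 tested genes of the ER unfolded protein response, Herpud1 alone passed, and the list median was 0.08 log2 from that of all genes. Few lipid genes were called. Elovl6, a fatty acid elongase, fell from 70.9 ± 10.3 to 44.6 ± 1.76 TPM (SD, n = 3 each, -0.65 ± 0.13 log2, limma adjusted p = 0.0464). It was the only call among 14 fatty acid synthesis genes, of which 13 had negative differences. The median of that list was -0.03 log2 relative to that of all genes. None of 23 sterol synthesis genes was called, with differences from -0.85 to 0.86 log2. The groups did not overlap in 1 sterol gene that was higher and 5 that were lower. Arl4c, a small GTPase induced by the sterol sensor LXR, rose from 35.4 ± 4.77 to 70.4 ± 12.9 TPM (SD, n = 3 each; 0.97 ± 0.20 log2, limma adjusted p = 0.0484), the only call among 7 LXR targets. Neither of these calls held in any fit that left out a library.

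**Figure D3:**
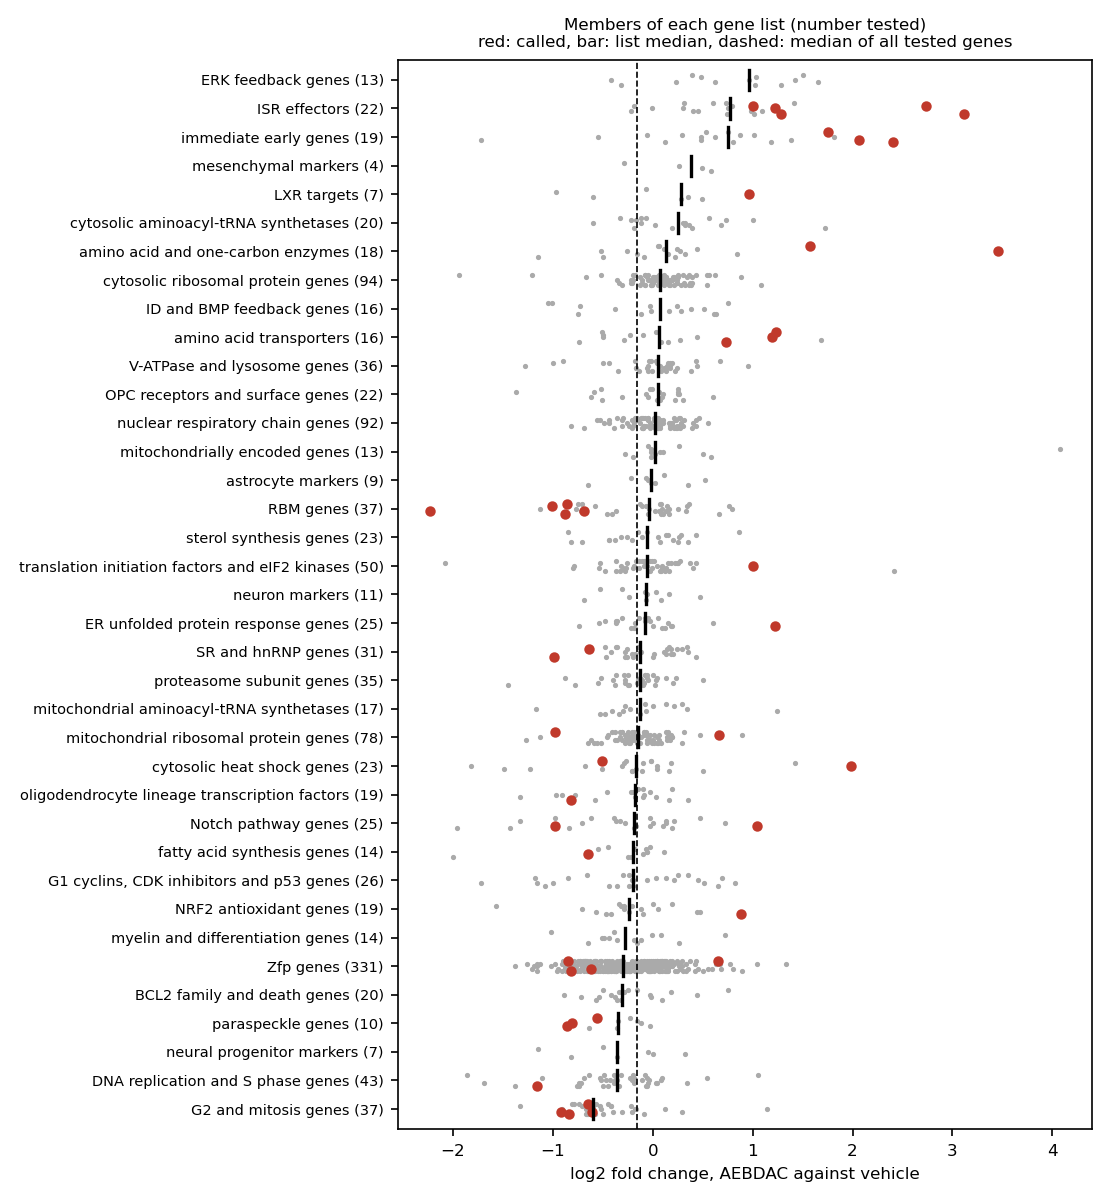
Every tested member of each gene list, with its log2 fold change, AEBDAC against vehicle, on the x axis and the list with its number of tested members on the y axis; red points passed the test, black bars are list medians and the dashed line is the median of all 12009 genes at -0.16. ERK feedback genes, ISR effectors and immediate early genes have the highest medians, and G2 and mitosis genes the lowest.

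In the OPC lineage, 1 of 19 tested transcription factors, Olig1, fell and none rose. Olig1, a basic helix-loop-helix factor that promotes oligodendrocyte maturation, was at 1016, 1282 and 1284 TPM in vehicle and 819, 569.7 and 656 TPM after AEBDAC. All AEBDAC libraries were below all vehicle libraries (-0.82 ± 0.16 log2, limma adjusted p = 0.0404). The summed level of the 21 listed factors was 2943 to 3290 TPM in vehicle and 2156 to 2563 TPM after AEBDAC, so these sums did not overlap. Olig1 was the most abundant member of that sum, and the list median was -0.01 log2 relative to that of all genes. The call of Olig1 held in 1 of the 6 fits that left out a library, that without AEBDAC library 1. In bulk samples, fewer cells of a type and less RNA per cell cannot be told apart, here and in all results below.

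Sox10, the factor that maintains oligodendrocyte identity, was at 45.1, 19.6 and 60.99 TPM in vehicle and 41.4, 7.48 and 31.4 TPM after AEBDAC, a spread too wide for a call (-0.78 log2, limma adjusted p = 0.584), with library 2 the lowest in both groups. Among 22 tested OPC receptor and surface genes none was called. Gpr17, a receptor of OPCs that have begun to differentiate, was at 62.4, 50.7 and 63.8 TPM against 33.1, 13.6 and 23.7 TPM, without overlap but short of the threshold (-1.37 log2, limma adjusted p = 0.0555). Of 27 myelin and differentiation genes, 14 passed the filter and none was called. Mbp, myelin basic protein, was at 5.43, 0.899 and 1.96 TPM against 4.64, 0.687 and 0.676 TPM with overlapping groups (-0.39 log2, limma adjusted p = 0.77), and Cnp, an early myelin enzyme, at 59.8, 48.1 and 51.04 TPM against 40.5, 33.5 and 36.6 TPM without overlap (-0.51 log2, limma adjusted p = 0.0793). Omg, the oligodendrocyte myelin glycoprotein (chr11:79500982-79504084), was among the 12 largest falls. It was at 32.6, 33.05 and 29.5 TPM against 11.6, 11.4 and 13.01 TPM, in narrow and separate groups (-1.33 ± 0.16 log2, limma adjusted p = 0.00546), and its call held without each library in turn.

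Notch signalling, in which ligands on neighbouring cells hold OPCs back from maturation, changed in opposite directions at the ligands: of 25 tested genes, Jag1 rose and Dll1 fell. Dll1 (chr17:15367354-15376872) was at 65.6, 58.8 and 58.7 TPM in vehicle and 29.7, 31.97 and 29.7 TPM after AEBDAC (-0.98 ± 0.12 log2, limma adjusted p = 0.00546). The AEBDAC libraries lay close together and every vehicle library was far above them. Of its 31-base words, 17.9% occur in a long non-coding RNA on the opposite strand, and the counting is not described as using strand. Jag1 was at 11.7, 14.9 and 13.004 TPM against 25.8, 27.7 and 31.1 TPM, without overlap (1.05 ± 0.18 log2, limma adjusted p = 0.0324). Its call was lost without vehicle library 1, as it was without each of the other libraries except AEBDAC library 1.

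No target of the Notch receptors passed the test. Nrarp, a target and inhibitor of the pathway, was at 38.4, 19.1 and 48.3 TPM in vehicle and 14.6, 4.39 and 6.79 TPM after AEBDAC (-1.96 log2, limma adjusted p = 0.0698). Hes5, a repressor of neuronal and oligodendrocyte genes, was at 125, 135 and 184 TPM against 106, 38.9 and 45.4 TPM (-1.33 log2, limma adjusted p = 0.0848), and Hey1 at 19.1, 14.2 and 17.5 TPM against 12.4, 10.3 and 9.16 TPM (-0.62 log2, limma adjusted p = 0.0826). In these 3 genes, picked after their values were seen, every AEBDAC library was below every vehicle library. Hes1, another target, overlapped at 20.6, 19.2 and 38.2 TPM against 30.4, 17.3 and 28.8 TPM, and the receptor Notch1 at 62.1, 35.98 and 44.8 TPM against 51.9, 54.2 and 44.7 TPM.

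Genes of G2 and mitosis had the lowest list median, -0.44 log2 relative to that of all genes: 4 of 37 tested genes fell, 34 differences were negative, and in 25 genes all AEBDAC libraries were below vehicle, against 19.2% of all genes. Aurka, the kinase that matures the spindle poles, was at 88.04, 73.4 and 65.4 TPM in vehicle and 41.9, 40.01 and 42.8 TPM after AEBDAC (-0.84 ± 0.15 log2, limma adjusted p = 0.032). Plk1, a kinase of mitotic entry, was at 83.8, 101 and 103 TPM against 66.3, 55.5 and 60.5 TPM (-0.65 ± 0.14 log2, limma adjusted p = 0.049). AEBDAC libraries were tightly grouped and lower in both. Aurkb, the kinase of the chromosomal passenger complex, fell by 0.61 log2 (limma adjusted p = 0.0399) and Kif20a, a kinesin of cytokinesis, by 0.92 log2 (limma adjusted p = 0.0479), where 26.7% of the 31-base words of Kif20a also occur in Cdc23. Without vehicle library 1 none of the 37 genes was called, although the list median was then -0.41 log2 relative to that of all genes.

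Ccne1, cyclin E1, which drives entry into S phase, was the only call among 43 tested genes of DNA replication and S phase. It was at 25.4, 21.2 and 20.8 TPM in vehicle and 10.99, 7.17 and 10.6 TPM after AEBDAC, lower in every library (-1.16 ± 0.21 log2, limma adjusted p = 0.0324), and not called without vehicle library 1. Ccnf, cyclin F, was among the 12 largest falls at 61.2, 33.5 and 30.2 TPM against 19.4, 14.001 and 13.5 TPM (-1.31 ± 0.24 log2, limma adjusted p = 0.038), with vehicle library 1 the highest by far, and was not called without that library. Mki67, the proliferation antigen Ki-67, was at 87.7, 68.3 and 60.9 TPM against 48.4, 45.04 and 41.3 TPM and missed the threshold (-0.66 log2, limma adjusted p = 0.0651). None of 26 tested G1 cyclin, CDK inhibitor and p53 genes was called.

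In 3 lists of genes for RNA-binding and splicing proteins every call was a fall. Over all tested genes 106 of the 153 calls were falls, 0.883% of the genes. Of 37 tested RBM genes 5 fell (Rbm12, Rbm12b2, Rbm10, Rbm14 and Rbmxl1), although 18 differences were positive and the list median lay 0.13 log2 above that of all genes. Of 31 tested SR and hnRNP genes Srsf3 and Srsf6 fell, and 14 differences were positive. Of 10 tested genes of paraspeckles, nuclear bodies built on the non-coding RNA Neat1, Sfpq, Tardbp and again Rbm14 fell. All 10 differences were negative, beside 67.0% over all genes. Sfpq, a core paraspeckle protein (chr4:127021324-127037013), was at 209, 248 and 227 TPM in vehicle and 132, 134 and 122 TPM after AEBDAC. The groups were narrow and apart (-0.81 ± 0.10 log2, limma adjusted p = 0.00546). Srsf3, a splicing factor of the SR family, was at 241, 227 and 231 TPM against 144, 96.8 and 115 TPM (-0.99 ± 0.17 log2, limma adjusted p = 0.0294), and Tardbp, which encodes TDP-43, at 519, 437 and 428 TPM against 294, 311 and 332 TPM (-0.56 ± 0.11 log2, limma adjusted p = 0.044). Both were lower in every AEBDAC library. Without vehicle library 1, 3 of the 5 RBM calls and 2 of the 3 paraspeckle calls were made. Srsf3 and Srsf6 were not called in that fit, in which 1 other SR and hnRNP gene was called lower.

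Several of these genes share sequence with neighbours or copies, so their separate values are uncertain: 87.4% of the 31-base words of Rbmxl1 occur in another gene, 63.3% of Rbm12b2, 53.5% of Rbm10, 33.4% of Rbm12 and 23.8% of Tardbp. Among the 106 genes that fell, 22 had over 20% such words, and among the 47 that rose, 5. Shared words were not measured over all tested genes, so these counts do not show whether either is unusual. Rbm14, another paraspeckle protein, had 18.7% such words and fell from 50.6 ± 3.26 to 27.6 ± 3.36 TPM (SD, n = 3 each; -0.85 ± 0.13 log2, limma adjusted p = 0.0203).

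The largest fall among genes with a name other than Gm or Rik, Rbm12, belongs to a locus where 3 models overlap on the minus strand. Rbm12, an RNA-binding protein gene, spans chr2:156091958-156111978 and Cpne1, which encodes the calcium-dependent membrane-binding protein copine, spans chr2:156071842-156111965 on GRCm38; the model Gm28036 shares 83.3% of the exonic bases of Cpne1 and 32.6% of those of Rbm12. Rbm12 was at 13.99, 13.2 and 11.9 TPM in vehicle and 3.55, 2.44 and 0.700 TPM after AEBDAC (-2.23 ± 0.31 log2, limma adjusted p = 0.0143). Cpne1, a called gene named here for its overlap, was at 24.9, 29.9 and 33.5 TPM against 53.3, 66.4 and 59.4 TPM, so that the pair moved in opposite directions (mean 2.03 times as high, limma adjusted p = 0.0177). Gm28036 was at 78.0, 34.6 and 26.5 TPM against 14.03, 1.49 and 10.8 TPM and did not pass the test (limma adjusted p = 0.0744). The 3 models summed to 117, 77.7 and 71.8 TPM in vehicle and to 70.9, 70.4 and 70.9 TPM after AEBDAC, so the sum after AEBDAC was close to that of vehicle libraries 2 and 3, while its division between the models differed.

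**Figure D4:**
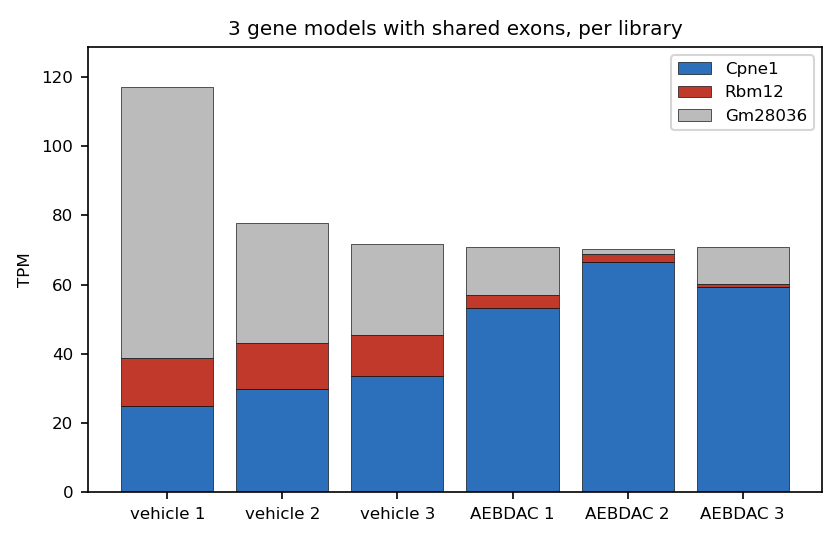
Stacked TPM of the 3 overlapping models Cpne1 (blue), Rbm12 (red) and Gm28036 (grey) in each of the 6 libraries. After AEBDAC the stack is mostly Cpne1, at 53.3 to 66.4 TPM, whereas in vehicle Gm28036 and Rbm12 take a larger part; the total is 70.4 to 77.7 TPM in all libraries but vehicle library 1.

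The other genes of largest change had varied roles. Among the rises, Irf2bp2, a transcriptional coregulator, went from 9.82 ± 3.28 to 33.1 ± 5.07 TPM (1.70 ± 0.29 log2, limma adjusted p = 0.032), Fbxl5, the iron-sensing subunit of a ubiquitin ligase, from 3.33 ± 1.27 to 11.9 ± 2.19 TPM (1.61 ± 0.34 log2, limma adjusted p = 0.0479), and Slc39a14, a zinc and iron importer, from 6.87 ± 3.62 to 18.9 ± 3.32 TPM (1.44 ± 0.30 log2, limma adjusted p = 0.0483). These means and SDs are over 3 libraries each. Fbxl5 was called in none of the fits that left out a library and the other pair in 1 each. Among the falls, Snn, the small membrane protein stannin, was at 94.6, 84.6 and 88.8 TPM against 45.1, 19.8 and 31.7 TPM, the most abundant of the 12 (-1.52 ± 0.28 log2, limma adjusted p = 0.038). Rfx5, a factor for genes of antigen presentation, was at 26.4, 19.6 and 17.9 TPM against 9.25, 3.18 and 8.02 TPM (-1.60 ± 0.33 log2, limma adjusted p = 0.0479), with 24.0% of its 31-base words in an antisense gene. Ppp1r10, a nuclear targeting subunit of protein phosphatase 1, fell by 1.39 log2 (limma adjusted p = 0.044) and Ddx11, a DNA helicase, by 1.22 log2 (limma adjusted p = 0.0404). Armc10, Vmac, Tpra1, Tm2d3 and Ccdc74a made up the rest, with fold changes of -1.74 to -1.39 log2 from vehicle means of at most 23.0 TPM. Each of the falls in this paragraph was called in 1 or 2 of the 6 fits that left out a library.

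Of 331 tested zinc finger genes named Zfp, 254 differences were negative, beside 8043 of 12009 over all genes. Their median was -0.14 log2 relative to that of all genes. Limma called 4 of the 331, a share close to that of all genes (1.27%). Zfp36l2, an mRNA-destabilizing protein of another finger class, rose by 0.66 log2, and Zfp46, Zfp646 and Zfp251 fell. Among 78 mitochondrial ribosomal protein genes Mrps30 rose by 0.66 log2 and Mrpl49 fell by 0.98 log2. None of these Zfp and mitochondrial ribosomal calls held without vehicle library 1. In 94 cytosolic ribosomal protein, 92 nuclear respiratory chain, 35 proteasome, 36 V-ATPase and lysosome, 20 BCL2 family and death, 16 ID and BMP feedback and 13 mitochondrially encoded genes, limma called none. Of the 39 lists described here, 20 held no call. The marker lists of other cell types also held none, with 9 astrocyte, 11 neuron, 7 neural progenitor, 4 mesenchymal and 2 pluripotent genes tested. Their summed levels were 395 to 423 TPM in vehicle against 352 to 396 TPM after AEBDAC for astrocyte markers and 659 to 912 TPM against 525 to 778 TPM for neuron markers. Map2, a microtubule protein of neurons and also of some glia, was the neuron marker nearest the threshold, at 416, 431 and 388 TPM against 278, 305 and 272 TPM (-0.53 log2, limma adjusted p = 0.0651); the part of such cells in the results above was not tested.

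The changed genes were also described by level and gene structure. Their median mean level over the 12 libraries was 33.2 TPM for genes that rose and 24.0 TPM for those that fell, against 11.2 TPM for all tested genes. The median genomic span was 16.5 kb and 13.0 kb against 23.4 kb, and the longest transcript had a median of 3512 and 3105 bases against 3396. The median GC content of that transcript was 54.6% in genes that rose, 49.6% in genes that fell and 49.5% in all. These are descriptions with no test, and low genes seldom pass the test.

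Against the other compounds, no gene set AEBDAC apart in limma. In the same fit, 0 of 12009 genes differed between AEBDAC and CPC or between AEBDAC and MTOAC at an adjusted p under 0.05. The lowest limma adjusted p was 1 in both. An unadjusted p under 0.05 was reached by 211 and 307 genes, fewer than this threshold would pass if no gene differed. A replicate block gave 415 and 527 such genes and 0 calls. Each compound was given at its own IC75, so doses were set separately and their amounts are not stated, and the comparisons with vehicle share the same 3 vehicle libraries, so the following values are set side by side. Asns was at 5.49, 10.2 and 8.14 TPM after CPC and 12.2, 9.75 and 16.04 TPM after MTOAC, differences of 2.56 and 3.18 log2 from vehicle beside 3.45 for AEBDAC. Chac1 differed from vehicle by 2.66 log2 after CPC and 3.03 after MTOAC beside 3.11 for AEBDAC, and Dll1 by -0.83 and -1.36 beside -0.98. Rbm12 differed by -1.77 and -2.20 beside -2.23, and Olig1 by -0.61 and -1.17 beside -0.82. All of these genes stood on the same side of vehicle after each compound.

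The gene with the most unlike levels among those named was Hspa1a, singled out after its values were seen. It was at 3.98, 10.2 and 3.14 TPM after CPC, 8.55, 21.5 and 13.6 TPM after AEBDAC and 34.5, 33.5 and 31.96 TPM after MTOAC. AEBDAC exceeded CPC by 1.25 log2 (95% interval 0.42 to 2.08) and AEBDAC minus MTOAC was -1.23 log2 (95% interval -2.06 to -0.40), and both had a limma adjusted p of 1. Nr4a1 was at 29.1, 42.5 and 46.5 TPM after CPC and 58.4, 60.9 and 56.3 TPM after MTOAC, and AEBDAC exceeded CPC by 0.75 log2 (95% interval 0.37 to 1.12, limma adjusted p = 1). For the leading ISR gene Chac1 the interval of AEBDAC minus MTOAC ran from -0.48 to 0.63 log2 and that of AEBDAC minus CPC from -0.11 to 1.003 log2, neither excluding 0. With the replicate number as a block, which pairs these libraries, the intervals were -0.42 to 0.57 log2 and -0.05 to 0.94 log2. The limma adjusted p was 1 in both. For Hspa1a the blocked intervals were 0.41 to 2.10 log2 against CPC and -2.08 to -0.38 log2 against MTOAC. For Nr4a1 against CPC the blocked interval was 0.42 to 1.07 log2. Of the 153 genes changed against vehicle, 26 had an unadjusted p under 0.05 against CPC and 11 against MTOAC. Over all 12009 genes these counts were 211 and 307. The 153 were chosen by the same AEBDAC libraries, so their counts do not test whether AEBDAC stands apart.

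**Figure D5:**
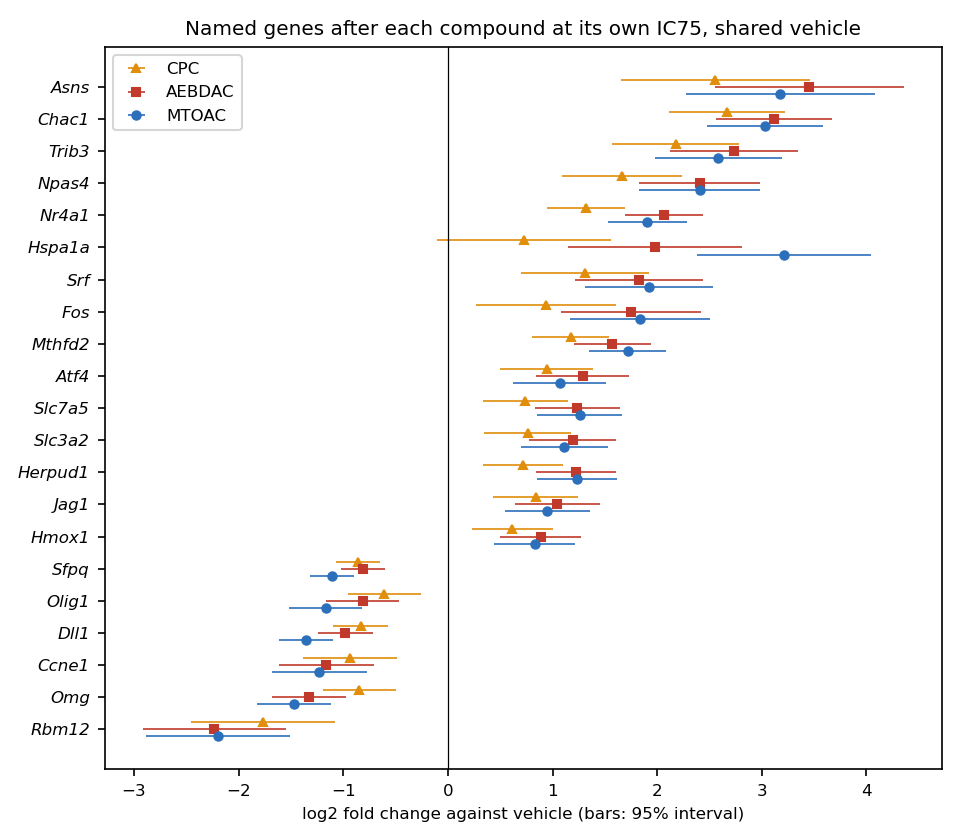
Log2 fold change against the shared vehicle libraries on the x axis, with 95% intervals, of 21 named genes after CPC (orange triangles), AEBDAC (red squares) and MTOAC (blue circles), each compound at its own IC75. The 3 intervals overlap for most genes, and Hspa1a shows the widest separation, from 0.73 after CPC to 3.21 after MTOAC.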

How the data were processed

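Libraries were made from poly(A) RNA and read as 150 bp pairs, per the labels' protocols. For each library the authors deposited a table of TPM by gene symbol, made with Salmon on mm10 per the submitters' processing notes, and neither its version nor the annotation is given in the sources used here. TPM are shares of a library, so a rise of abundant genes lowers all others, and they keep no depth. Each library's group was taken from its treatment label. From these values log2(TPM + 1) was computed and limma 3.58.1 (R 4.3.3, eBayes with trend and robust) fitted all 12 libraries with 4 group means and without covariates, in two-sided tests. This gives 1 shared estimate of the spread, and the median 95% interval spans ± 0.55 log2. The smallest p of an exact permutation test over 3 and 3 libraries would be 0.1. The fit was tested on simulated data.

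Named genes were the called genes with the 12 largest rises and 12 largest falls, given a mean of 5 TPM or more in 1 group, libraries that do not overlap and no Gm or Rik name, called members and the 2 members of smallest p of each of 39 lists, and 12 fixed genes; not all of them are described. Cpne1, Gm28036, Hspa1b, Sesn2, Ddit4, Egr1, Nr4a2, Dusp6, Spry4, Nrarp, Hey1, Hes1, Notch1 and Adam10 lie outside this rule and were chosen after their values were seen, as were the genes named in the other observations. The comparison, the members and the lists were chosen with earlier results of these data known. A single GENCODE M21 model (GRCm38, the assembly of mm10) was found for 34810 of 35385 symbols, and shared sequence was measured as 31-base words of its transcripts. Between AEBDAC and CPC, libraries of the same number deviated together from their group means, with correlations across genes of 0.281, 0.423 and 0.229, and between AEBDAC and MTOAC of 0.332, 0.359 and 0.296. The numbers, from the sample titles, therefore pair these libraries by the rule that all 3 exceed 0.1. Alternatives were other pseudocounts (0.1 and 5), filters, quantile normalization, a replicate block, only the groups compared, and leaving out each library.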

Additional observations from a re-analysis of the deposited data

How the results depend on the processing

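For AEBDAC against vehicle, 153 genes were called by limma. The count stayed within 1.5 times of this with a pseudocount of 0.1 (136) or 5 (191), a filter of 5 TPM (206) and quantile normalization (182). It was 65 when all genes above 0 TPM in 3 libraries were tested, 3 with only the 6 libraries in the fit, and between 9 and 104 when 1 library was left out. With a replicate block it was 1072, and with the block and quantile normalization 907; the block raised the calls among ERK feedback genes from 0 to 8 of 13, among ISR effectors from 5 to 10 of 22, among lineage factors from 1 to 6 of 19 and among G2 and mitosis genes from 4 to 16 of 37; the cause was not tested, and no label ties a replicate number to a culture. Deviations of same-numbered AEBDAC and vehicle libraries correlated at 0.0777, 0.253 and 0.0349, so the rule that each exceed 0.1 was not met, and AEBDAC library 3 correlated best with vehicle library 1 (0.0959). Between compounds 0 genes were called, by limma, and the block changed this for neither compound. Exceptions were 1 gene between AEBDAC and CPC with the filter above 0 TPM (Gm6520) and 1 with only the compared groups (Gm28438), and 1 between AEBDAC and MTOAC with only the compared groups (Gm48175), named because they were called and not by the rule. None of the 153 genes changed direction under any alternative in which it was tested. The 3 libraries a group and the unknown read depth limit these results. At the median gene the unadjusted 95% interval spans ± 0.55 log2. With that spread, a call at an adjusted p under 0.05 needed a clearly larger change. A missing call is therefore no sign of an unchanged gene.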

Other observations

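Further genes are given here outside the naming rule, chosen after their values were seen; all but Adam10 were called. Adrb1, the beta-1 adrenergic receptor, was at 2.51, 2.73 and 3.09 TPM in vehicle and 7.93, 6.69 and 7.50 TPM after AEBDAC (1.15 ± 0.19 log2, limma adjusted p = 0.0273). Nr1d1, the circadian repressor REV-ERB alpha, was at 4.88, 4.08 and 4.78 TPM against 8.36, 10.9 and 10.1 TPM (0.95 ± 0.18 log2, limma adjusted p = 0.0404). Every AEBDAC library was above every vehicle library for both receptors. Siah2, a ubiquitin ligase, rose by 1.05 log2 (limma adjusted p = 0.0404), and Smurf1, a ubiquitin ligase of the BMP pathway, by 0.87 log2 (limma adjusted p = 0.0404). Adrb1, Nr1d1, Siah2 and Smurf1 were not called without vehicle library 1.

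Hexim1, the inhibitor of the transcription elongation kinase P-TEFb, was at 43.3, 35.2 and 42.2 TPM in vehicle and 19.9, 14.3 and 16.3 TPM after AEBDAC (-1.21 ± 0.19 log2, limma adjusted p = 0.0195). Polr3k, a subunit of RNA polymerase III, was at 75.4, 95.8 and 98.9 TPM against 56.9, 41.4 and 48.2 TPM (-0.87 ± 0.16 log2, limma adjusted p = 0.038), and Mycl, a MYC family factor, at 40.5, 30.6 and 32.1 TPM against 19.9, 16.9 and 18.03 TPM (-0.87 ± 0.15 log2, limma adjusted p = 0.032). All 3 were lower in every AEBDAC library. Btbd17 was at 46.4, 48.96 and 55.1 TPM against 31.3, 27.5 and 27.7 TPM (-0.78 ± 0.13 log2, limma adjusted p = 0.0273). Without vehicle library 1, Hexim1 and Mycl were not called, whereas Polr3k and Btbd17 were. Adam10, a protease that cleaves Notch receptors, was at 19.2, 0.887 and 0.854 TPM against 0.446, 0.129 and 1.20 TPM, so that vehicle library 1 was far above the other 5 libraries; it was not called (limma adjusted p = 0.344).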
